A study of Mus musculus with 6 samples.

Results

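The CCAAT/enhancer-binding proteins are basic leucine zipper (bZIP) transcription factors, and 5 listed genes of the family and its stress member were followed through cells of the mouse aorta: Cebpa, Cebpb, Cebpd, Cebpg and Ddit3. The members were chosen by name, with earlier values from these same samples known. Of the 5, Cebpa, Cebpb, Cebpg and Ddit3 had a row among the 27998 genes counted, and Cebpd was not analysed here. Because the members were picked with their levels by cell type and diet in view, those values are given as a description and carry no test. Single cells were captured in droplets from digested aortas of C57B/6J mice aged 18 weeks, fed a normal diet (control, 3 samples) or a high-fat diet (3 samples). No transgene, deletion or drug is given in the labels for either group, and the labels do not say whether each sample was 1 animal or a pool. The p-values below therefore measure only the spread between these samples.

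C/EBP proteins bind DNA as pairs joined through their leucine zippers. C/EBPα, from Cebpa, is needed for myeloid cells and mature fat cells. C/EBPβ, from Cebpb, is rapidly induced by interleukin-6, interleukin-1 and stress, and acts in macrophages, acute phase responses and early fat cell formation. C/EBPγ, from Cebpg, lacks a strong activation domain and mainly works as a partner of other bZIP factors such as ATF4. CHOP, from Ddit3, is made when protein folding in the endoplasmic reticulum fails, and holds other C/EBP proteins away from their usual sites. None of these proteins was measured, only the transcripts.

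In the GRCm38 (mm10) build, Cebpb (ENSMUSG00000056501) lies at chr2:167688915-167690418 on the plus strand as a gene of 1 exon, and Tmem189 overlaps it on the minus strand. Cebpa (ENSMUSG00000034957, chr7:35119293-35121928, plus strand) and Cebpg (ENSMUSG00000056216, chr7:35046422-35056573, minus strand) are neighbours on chromosome 7, 62.7 kb apart. Cebpa is overlapped by Gm45091, and Cebpg by Gm44836, Gm45094 and Gm45095. Ddit3 (ENSMUSG00000025408, chr10:127290774-127296288, plus strand) is overlapped by Mars on the minus strand, by Gm4189 and by a second annotated locus of the same name. The strand setting of the counting is not given in the sources used here, so reads from overlapping genes cannot be told apart. The bases just before the start of the gene with the largest diet difference, Cebpb, are shown beside those of the stress member Ddit3, whose level differed little. Both come from RefSeq promoter windows (GRCm38.p6), 5′ to 3′ on the gene's strand, ending at the base before the annotated start (chr2:167688665-167688914 and chr10:127290543-127290773). Capitals mark the letters TGACGC, which shares TGACG with the cAMP response element TGACGTCA, or TGACTCA, an AP-1 site, on either strand.
Cebpb: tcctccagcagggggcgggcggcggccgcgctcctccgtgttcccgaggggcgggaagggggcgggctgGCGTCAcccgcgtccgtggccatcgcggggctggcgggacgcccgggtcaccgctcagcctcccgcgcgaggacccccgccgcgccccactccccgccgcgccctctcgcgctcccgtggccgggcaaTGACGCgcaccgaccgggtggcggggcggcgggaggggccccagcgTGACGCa
Ddit3: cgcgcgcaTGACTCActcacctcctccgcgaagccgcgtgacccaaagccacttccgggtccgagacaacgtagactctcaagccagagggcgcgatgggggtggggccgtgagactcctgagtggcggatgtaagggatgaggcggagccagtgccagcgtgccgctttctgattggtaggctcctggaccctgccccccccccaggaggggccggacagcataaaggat
The Cebpb stretch is 81.6% G and C and that of Ddit3 65.4%. TGACGC matched 3 times in the Cebpb window, 2 times on the gene's strand and 1 time on the other, and 7.40% of 32851 promoter windows of 300 bases hold it at least once. It did not match in the windows of Cebpa, Cebpg or Ddit3. TGACTCA matched once, in Ddit3 (5.20% of windows). The letters CCAAT, which gave the family its name, matched 2 times in the Cebpg window and once in that of Ddit3 (37.4% of windows). The palindrome TTGCGCAA, which C/EBP pairs favour (0.183% of windows), the C/EBP-ATF letters TGATGNAA (3.97%) and the full cAMP element TGACGTCA (1.79%) matched in none of the 4 windows. A match is a string of letters and not a measured binding site.

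The 6 matrices held 62838 cells, 6623 to 18138 per sample, with 41388034 to 83886418 UMIs (unique molecular identifiers, 1 per captured transcript) per sample and a median of 3856 to 5955 UMIs per cell. Any 2 samples shared 61 to 260 cell barcodes, 0.740% to 2.81% of the cells of either one. Barcode suffixes split the cells of each sample into 2 sets, here called wells. The sample titles do not say what these sets are. Well 1 of control 3 stood apart: it held 634 cells against 7986 in well 2, and its Cebpb lay at the level of the high-fat diet wells in every main cell type. It held 15 B cells against 2367 in well 2, though whole samples also ranged from 27 (control 1) to 2539 B cells (control 2). It shared 1 to 10 barcodes with each of the other 11 wells, at most 1.58% of its cells. Its label is control, and Cebpb levels, fold changes and shares are given with and without it.

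Cells were put into types by a marker gate: a cell entered a type when it held UMIs of at least 3 of that type's markers and of more of them than of any other type's. This placed 54436 of 59413 cells with at least 300 genes and under 20% mitochondrial counts. Gated cells held a median of 8 of 8 measured smooth muscle markers (Myh11, Cnn1 and others), 6 of 8 fibroblast, 7 of 8 macrophage and 6 of 8 endothelial markers. These 4 types held 13996, 19088, 7566 and 2954 cells and were compared between diets. Mesothelial (712), Schwann (281), T (1688), B (5606) and erythroid (1951) cells also had at least 20 cells in each sample, which gave 9 types in all. Levels are given as CPM, a gene's UMIs scaled by all UMIs of the cells of that type in that sample. Gene length does not enter, since only transcript ends were counted.

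Cebpb was higher in all 3 high-fat diet samples than in all 3 controls in each of the 9 cell types. In Schwann cells this rested on few UMIs, 0, 2 and 3 in controls and 24, 2 and 3 in high-fat diet samples. Control 1 held 1 Cebpb UMI in T cells, 1 in B cells and 0 in erythroid cells. In smooth muscle cells Cebpb stood at 12.02, 15.1 and 18.4 CPM in controls 1, 2 and 3. High-fat diet samples 1, 2 and 3 read 146.6, 134.4 and 95.2 CPM. The log2 fold change, fitted with edgeR, was 3.01 (SE 0.26). In fibroblasts the controls read 15.9, 13.7 and 49.3 CPM and the high-fat diet samples 171.9, 164.2 and 118.4 CPM, and the log2 fold change was 2.52 (SE 0.54). Control 3 was more than 3 times as high as either other control there, and still below every high-fat diet sample. In macrophages, where C/EBPβ is a known regulator of inflammatory genes, the values were 35.5, 34.6 and 50.8 CPM against 276.8, 214.4 and 188.8 CPM, with a log2 fold change of 2.39 (SE 0.23). In endothelial cells they were 5.7, 14.4 and 27.2 CPM against 70.0, 71.2 and 43.0 CPM, with a log2 fold change of 1.77 (SE 0.49). High-fat diet 3 was the lowest of its group in all 4 types. Among all genes that averaged 20 CPM or more, the Cebpb fold change ranked first of 5846 in fibroblasts, 5 of 5743 in smooth muscle cells, 5 of 5624 in macrophages and 11 of 6241 in endothelial cells. Without well 1 of control 3 the ranks were first of 5846, 5 of 5745, 5 of 5622 and 6 of 6234. The 20 CPM limit was set on the mean over all 6 samples. In smooth muscle and endothelial cells Cebpb reached it only through the high-fat diet samples (control means 15.2 and 15.8 CPM). Since Cebpb was also chosen from this comparison, nothing is read from these ranks.

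**Figure D1:**
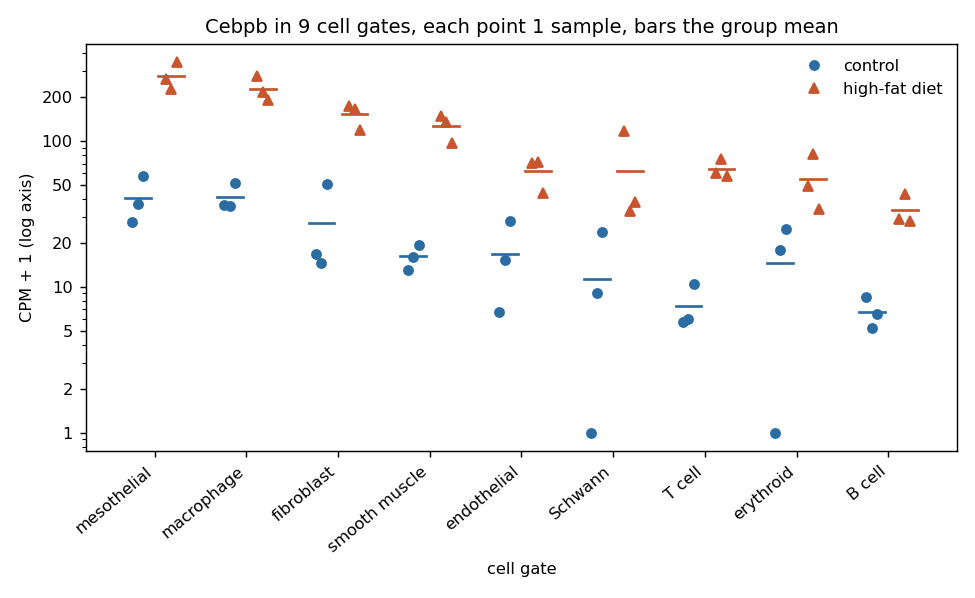
Cebpb level (CPM + 1, log axis) in 9 cell types, ordered by mean level. Each point is 1 sample, circles are controls, triangles high-fat diet samples and bars the mean of 3 samples. In every type the 3 triangles lie above the 3 circles.

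As the background to these values, samples of the high-fat diet lay above all controls for 6.57% of genes in smooth muscle cells, 9.85% in fibroblasts, 9.54% in macrophages and 10.6% in endothelial cells. They lay below all controls for 8.72%, 7.63%, 4.58% and 9.14%, and either way for 15.3%, 17.5%, 14.1% and 19.8%, in the same order. Since Cebpb was chosen from this comparison, nothing is read from its place among them, and no test of it is given.

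By single wells, the controls fell into 1 high well and 5 low ones. In fibroblasts, Cebpb stood at 233 CPM in well 1 of control 3 (143 cells, 176 UMIs) and at 18.9 CPM in well 2 of the same sample. The other 5 control wells ranged from 12.3 to 19.5 CPM and the 6 high-fat diet wells from 86.5 to 191 CPM. Well 1 of control 3 thus read above every high-fat diet well in this cell type. In smooth muscle cells it read 75.0 CPM (well 2 13.1 CPM), between the lowest high-fat diet well at 66.0 CPM and the highest at 169.9 CPM. In macrophages it read 209.0 CPM against 41.0 CPM in well 2, and in endothelial cells 92.2 CPM against 9.30 CPM, where the high-fat diet wells ranged from 33.1 to 89.8 CPM. Its T cells (19 cells, 4 UMIs) read 52.1 CPM against 7.51 CPM in well 2, and its erythroid cells 65.2 CPM against 12.5 CPM.

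Without well 1 of control 3, the log2 fold change of Cebpb was 3.20 (SE 0.22) in smooth muscle cells, 3.20 (SE 0.20) in fibroblasts, 2.51 (SE 0.19) in macrophages and 2.52 (SE 0.31) in endothelial cells. The control mean then fell from 26.3 to 16.1 CPM in fibroblasts and from 15.8 to 9.78 CPM in endothelial cells. Without control 3 as a whole the values were 3.24, 3.32, 2.61 and 2.46 in the same order. From well 1 of each sample alone they were 1.99, 0.68, 1.04 and 0.52, and from well 2 alone 3.35, 3.35, 2.84 and 2.80. With all 12 wells the diets overlapped for Cebpb in all 4 types. The well was set aside because of its Cebpb, so that the other 11 wells then separate by diet is fixed by that choice and is no sign of stability. Among genes with at least 20 CPM, the 6 high-fat diet wells lay above the 5 other control wells for 2.11% in smooth muscle cells, 1.96% in fibroblasts, 1.41% in macrophages and 1.89% in endothelial cells, from which nothing is read for Cebpb.

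**Figure D2:**
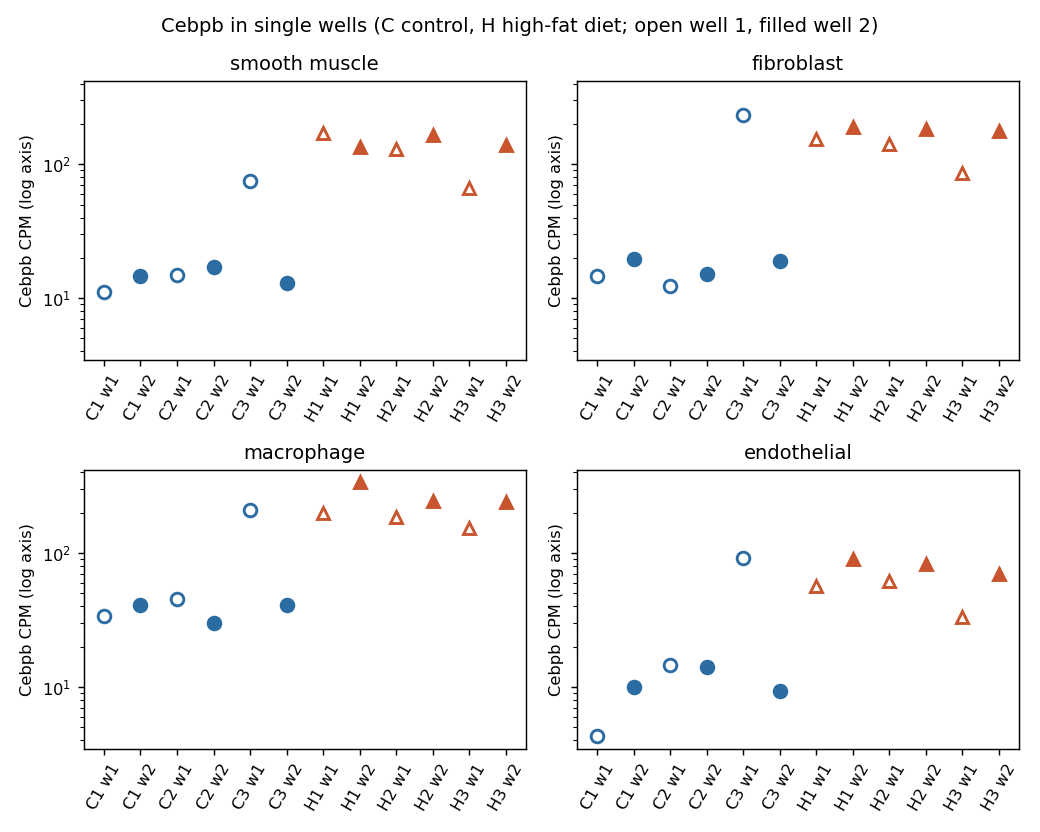
Cebpb level (CPM, log axis) in the 12 wells, as set by barcode suffix, for 4 cell types. C and H stand for control and high-fat diet, open symbols for well 1 and filled symbols for well 2. The open circle of control 3 lies among the triangles in smooth muscle cells and macrophages and above all of them in fibroblasts (233 CPM) and endothelial cells (92.2 CPM), and the other control wells lie below the triangles.

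Well 1 of control 3 did not side with the high-fat diet wells in every gene. In fibroblasts, 18 genes of at least 20 CPM were at least 2-fold higher and without overlap in the 6 high-fat diet wells than in the 5 other control wells, and the odd well was nearer to the high-fat diet wells in 8 of them. The counts were 7 of 19 in smooth muscle cells, 6 of 11 in macrophages and 11 of 20 in endothelial cells. Cebpb, for which the well was set aside, is itself among the genes counted as nearer to the high-fat diet wells in each of these types. Of genes lower by the same rule, the odd well was nearer to the high-fat diet wells in 1 of 3 in fibroblasts and 2 of 2 in smooth muscle cells. In macrophages this held for 2 of 3 and in endothelial cells for 3 of 4. Alyref, an mRNA export factor, read 39.7 CPM in the fibroblasts of that well, near the other controls (18.8 to 38.5 CPM) and below the high-fat diet wells (87.1 to 136.6 CPM). Rbm3, a cold-inducible RNA-binding gene, read 135.0 CPM, within the high-fat diet wells (119.3 to 175.8 CPM) and below the other controls (237.3 to 429.7 CPM). Alyref and Rbm3 were chosen after their values were seen.

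Across cell types, mesothelial cells, which line the outer serous surface, held the highest mean Cebpb. They read 26.9, 36.3 and 56.8 CPM in controls and 263.7, 225.1 and 344.7 CPM under the high-fat diet. The mean over all 6 samples was 158.9 CPM in mesothelial cells, 133.5 CPM in macrophages, 88.9 CPM in fibroblasts, 70.3 CPM in smooth muscle cells, 38.6 CPM in endothelial cells, 35.9 CPM in Schwann cells, 34.9 CPM in T cells, 33.8 CPM in erythroid cells and 19.2 CPM in B cells. Macrophages were above fibroblasts in 6 of 6 samples. Mesothelial cells were above macrophages in 4 of 6 and Schwann cells above T cells in 3 of 6, so these neighbours do not differ beyond their spread. The order differed by diet: the control means ran from macrophages (40.3 CPM) and mesothelial cells (40.0 CPM) through fibroblasts (26.3 CPM), endothelial (15.8 CPM), smooth muscle (15.2 CPM), erythroid (13.6 CPM) and Schwann cells (10.3 CPM) to T (6.37 CPM) and B cells (5.75 CPM). Under the high-fat diet they ran from mesothelial cells (277.8 CPM), macrophages (226.7 CPM), fibroblasts (151.5 CPM) and smooth muscle cells (125.4 CPM) to T (63.5 CPM), Schwann (61.6 CPM), endothelial (61.4 CPM), erythroid (54.0 CPM) and B cells (32.7 CPM). T cells, with 4.7, 5.0 and 9.4 CPM in controls, read 59.7, 74.4 and 56.5 CPM under the high-fat diet, the largest ratio of group means at 9.97. They held 1, 15 and 17 Cebpb UMIs in controls and 38, 30 and 17 under the high-fat diet. B cells read 7.6, 4.2 and 5.5 CPM in controls and 28.1, 42.6 and 27.5 CPM under the high-fat diet. In the 5 other types, all high-fat diet samples lay above all controls for 8.07% of genes in mesothelial, 4.91% in Schwann, 11.9% in T, 10.8% in B and 2.48% in erythroid cells.

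Without well 1 of control 3, the control means were 7.01 CPM in Schwann, 5.74 CPM in T, 9.77 CPM in erythroid, 5.72 CPM in B and 39.7 CPM in mesothelial cells. No high-fat diet sample then fell among the controls. The well was set aside because of its Cebpb, so nothing is read from this separation.

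Rare cells were summed over the samples of a diet, with exact Poisson intervals that cover counting error only. Neutrophils, in which C/EBPβ drives emergency output, held 8 Cebpb UMIs in 33 control cells (82.1 CPM, 95% interval 35.4 to 161.8) and 285 in 117 high-fat diet cells (788.0 CPM, 699.1 to 885.0). By sample they read 187.4, 0 and 41.4 CPM in controls of 7 to 14 cells and 1249.0, 1208.3 and 470.0 CPM under the high-fat diet. Their defining family member Cebpe, a factor of granule formation named after its values were seen, read 225.8 CPM (141.5 to 341.9) in control and 157.6 CPM (119.4 to 204.2) in high-fat diet neutrophils, and at most 3.18 CPM on average in the 9 main types. Monocytes held 19 UMIs in 70 control cells (49.2 CPM, 29.6 to 76.9) and 55 in 31 high-fat diet cells (377.5 CPM, 284.4 to 491.4). Pericytes read 53.1 CPM (32.4 to 82.0) and 106.2 CPM (79.3 to 139.3). Of the 112 control pericytes, 21 lay in well 1 of control 3, and without them the control value was 15.9 CPM (5.18 to 37.2). Without that well control monocytes read 34.4 CPM (18.3 to 58.8), and it held 0 neutrophils. Dendritic cells held 0 UMIs in 28 control cells, an upper bound of 18.5 CPM that lies above the control means of B and T cells, so a lower level than theirs was not detectable there. They held 1 UMI in 32 high-fat diet cells (4.2 CPM, 0.1 to 23.2). The upper bound for high-fat diet dendritic cells lies below the values of the B cells of those samples, the lowest of the 9 main types.

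More cells carried a Cebpb UMI under the high-fat diet, in all 4 main types on average. With every cell thinned to 1000 UMIs, 1.49% ± 0.170 of control smooth muscle cells and 10.9% ± 2.07 of high-fat diet ones held a Cebpb UMI (SD, n = 3 each). In fibroblasts the shares were 2.33% ± 1.44 and 14.5% ± 2.11, in macrophages 4.33% ± 0.335 and 20.8% ± 3.71, and in mesothelial cells 4.79% ± 1.94 and 22.6% ± 7.20. In endothelial cells they were 1.62% ± 1.84 and 4.34% ± 1.41, and control 3 (3.61%) lay above high-fat diet 1 (3.35%). With well 2 alone standing for control 3, the control shares were 1.36% ± 0.209 in smooth muscle cells, 1.63% ± 0.231 in fibroblasts, 4.04% ± 0.279 in macrophages, 4.81% ± 1.96 in mesothelial cells and 0.797% ± 0.693 in endothelial cells. The diets then did not overlap in these 5. Since well 1 was set aside because of its Cebpb, nothing is read from that. The lowest shares, taken as background, were those of B cells with 0.246% ± 0.232 and 3.06% ± 1.08, so the background itself was higher under the high-fat diet. Unthinned, the shares were 9.88% ± 0.862 and 47.8% ± 9.37 in smooth muscle cells, 8.72% ± 2.88 and 43.5% ± 5.21 in fibroblasts, 14.4% ± 2.74 and 47.5% ± 7.49 in macrophages, 6.56% ± 3.86 and 17.4% ± 3.33 in endothelial cells and 2.21% ± 1.38 and 12.5% ± 4.96 in B cells. Median depths were 6630 to 7810.5 UMIs in control and 5727 to 7481.5 UMIs in high-fat diet smooth muscle cells, and 2237 to 4170 and 2567.5 to 4881.5 UMIs in B cells. Unthinned and with well 2 alone for control 3, the control shares were 9.09% ± 0.685 in smooth muscle cells, 7.18% ± 1.35 in fibroblasts, 13.7% ± 1.76 in macrophages and 4.68% ± 1.53 in endothelial cells. Unthinned, a smooth muscle cell with the transcript held 1.14 ± 0.045 UMIs of it in controls and 1.77 ± 0.226 under the high-fat diet, and without that well the control value was 1.10 ± 0.0305.

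Cebpa was highest in macrophages among the 9 types. It stood at 73.7, 112.2 and 102.4 CPM in controls 1, 2 and 3 and at 80.9, 77.5 and 102.5 CPM in high-fat diet samples 1, 2 and 3, so the diets overlapped. The mean of 91.5 CPM was above that of fibroblasts, the next type, in 6 of 6 samples. Fibroblasts read 19.6, 18.7 and 33.7 CPM in controls and 14.8, 18.1 and 20.8 CPM under the high-fat diet. Smooth muscle cells read 5.0 to 10.4 CPM and endothelial cells 7.9 to 16.2 CPM over the 6 samples. Among rare cells, summed over samples with 95% Poisson intervals, monocytes read 64.8 CPM (41.9 to 95.6) in control and 48.0 CPM (19.3 to 99.0) under the high-fat diet, intervals that reach the macrophage level. Dendritic cells read 40.2 CPM (17.4 to 79.2) and 29.1 CPM (11.7 to 60.1), and pericytes 29.2 CPM (14.6 to 52.2) and 49.0 CPM (31.4 to 72.9). Macrophages held 28.0% to 51.5% of all Cebpa UMIs of a sample. The log2 fold change with diet was -0.26 (SE 0.23) in macrophages, -0.45 (SE 0.26) in fibroblasts, -0.04 (SE 0.28) in smooth muscle cells and -0.46 (SE 0.27) in endothelial cells. Thinned shares of macrophages with a Cebpa UMI were 9.58% ± 2.12 in controls and 8.60% ± 0.374 with the high-fat diet (SD, n = 3 per group), and unthinned 32.3% ± 3.65 and 26.0% ± 1.48. The background share of B cells, thinned, was 0.192% ± 0.189 in controls and 0.303% ± 0.355 under the high-fat diet. Median depths were 3689 to 3975 UMIs in control and 2937 to 3760.5 UMIs in high-fat diet macrophages.

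Fat cell markers were summed beside Cebpa, a gene that fat cells express. In fibroblasts the summed level of 7 fat cell markers (Adipoq, Plin1, Cidec, Lep, Retn, Cfd and Car3) was 86.2 to 290.1 CPM in controls and 10.9 to 61.2 CPM under the high-fat diet, with Lep at 0 in 4 of the 6 samples. In endothelial cells the sums were 110.1 to 689.0 and 35.8 to 199.7 CPM, and in macrophages 51.0 to 579.7 and 12.2 to 251.1 CPM. In smooth muscle cells, where the diet value of Cebpa was -0.04, they were 98.3 to 150.8 and 3.9 to 210.4 CPM. Control 3 had the highest sum in fibroblasts, endothelial cells and macrophages and, in fibroblasts and endothelial cells, the highest Cebpa. In fibroblasts that Cebpa lay in well 2 of control 3 (36.4 CPM) and not in well 1 (17.2 CPM), and in endothelial cells in well 1 (35.1 CPM against 10.9 CPM). The part of fat cell RNA in the Cebpa values was not tested.

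Cebpg was highest in endothelial cells, at 94.0, 105.8 and 118.8 CPM in controls and 133.5, 120.1 and 125.2 CPM under the high-fat diet. The 3 high-fat diet samples lay above the 3 controls by a small margin, with a log2 fold change of 0.21 (SE 0.14). The endothelial mean of 116.2 CPM was above that of macrophages (76.8 CPM) in 6 of 6 samples. Macrophages were above fibroblasts (69.0 CPM) in 4 of 6 samples, and B cells were lowest at 33.0 CPM. In fibroblasts Cebpg read 65.1, 49.2 and 55.0 CPM in controls and 79.4, 79.2 and 86.1 CPM under the high-fat diet (log2 fold change 0.49, SE 0.10). In macrophages it read 61.7, 75.6 and 63.7 CPM against 77.9, 89.7 and 92.3 CPM (0.26, SE 0.17), and in smooth muscle cells 46.5, 33.1 and 37.3 CPM against 49.7, 50.8 and 47.2 CPM (0.32, SE 0.12). From well 1 of each sample alone the value turned to -0.09 in macrophages and -0.04 in endothelial cells, where well 1 of control 3 read 146.7 and 172.8 CPM. Single wells overlapped between diets in all 4 types. Cebpa, its neighbour on chromosome 7, had its highest level in another cell type and no diet difference of the same sign in these 4.

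Ddit3, the CHOP gene, had similar levels on both diets. In fibroblasts it read 52.1, 52.7 and 44.2 CPM in controls and 52.8, 55.9 and 57.8 CPM under the high-fat diet, so that the highest control and the lowest high-fat diet sample nearly met (log2 fold change 0.11, SE 0.12). In smooth muscle cells it read 47.8, 37.5 and 46.4 CPM against 43.2, 45.5 and 49.5 CPM (0.05, SE 0.13). The values were -0.09 (SE 0.18) in macrophages and -0.03 (SE 0.19) in endothelial cells, both with overlap. Schwann cells, the glia of peripheral nerves, held the most Ddit3 with 98.5, 56.0 and 61.0 CPM in controls and 67.5, 63.8 and 111.5 CPM under the high-fat diet. They were above mesothelial cells in 4 of 6 samples. Erythroid cells held the least, 7.9 to 25.6 CPM. Thinned shares of smooth muscle cells with a Ddit3 UMI were 4.29% ± 0.830 in controls and 4.64% ± 0.553 with the high-fat diet (SD, n = 3 per group), and unthinned 26.1% ± 3.69 and 24.1% ± 3.78. The lowest thinned control shares were those of B cells at 1.79% ± 1.55. Of the 9 types, Cebpg lay higher without overlap under the high-fat diet in 5, Cebpa in 1 (T cells) and Ddit3 in 1 (fibroblasts). By type, 2.48% to 11.9% of all genes did so, and nothing is read from these counts.

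**Figure D3:**
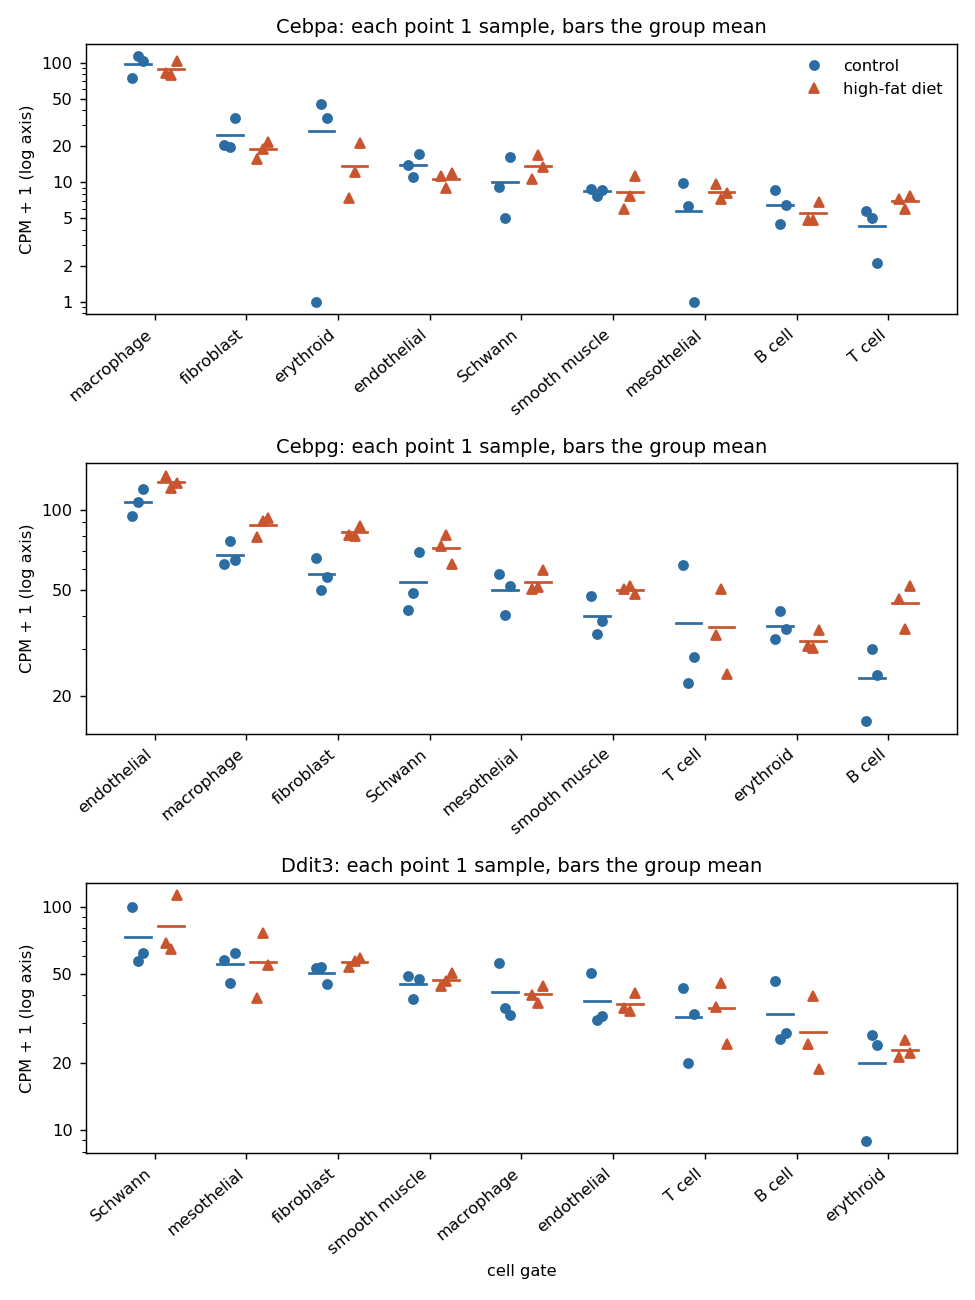
Levels of Cebpa, Cebpg and Ddit3 (CPM + 1, log axis) in 9 cell types, each panel ordered by mean level. Points are samples, circles control and triangles high-fat diet, and bars are means of 3 samples. Cebpa peaks in macrophages, Cebpg in endothelial cells and Ddit3 in Schwann cells, and the diets lie closer together than for Cebpb. Control and high-fat diet means were 22.4 and 43.7 CPM for Cebpg in B cells and 3.27 and 5.96 CPM for Cebpa in T cells. For Cebpa in erythroid cells they were 25.9 and 12.6 CPM, with overlap.

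**Figure D4:**
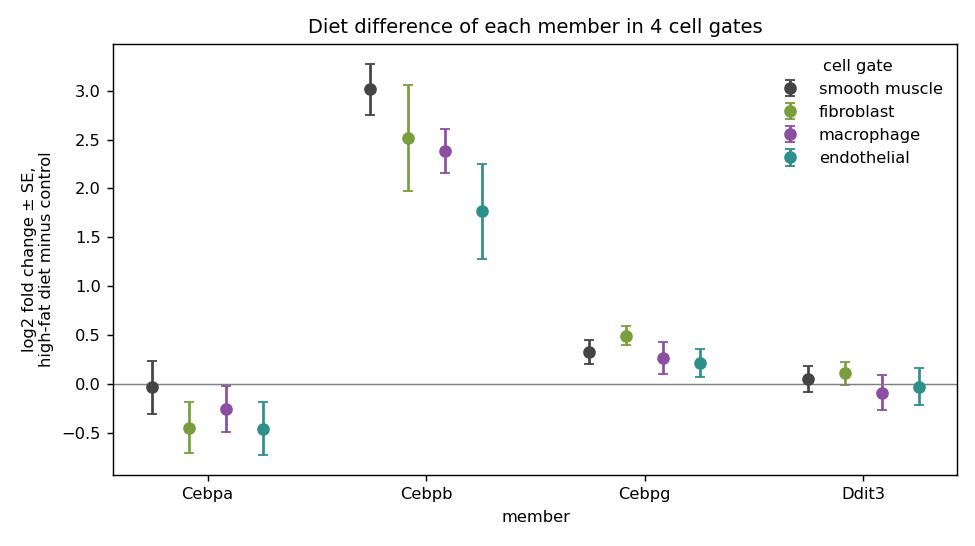
Log2 fold change between diets (high-fat diet minus control, edgeR, bars SE) of 4 members in 4 cell types. Cebpb lies between 1.77 and 3.01 and the other members between -0.46 and 0.49.

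Genes with the most similar profile over the 9 cell types were found by Pearson's r of log2(mean CPM + 1) among 9279 genes with at least 20 CPM in 1 type or more. For Cebpa they were Slc40a1, the iron exporter (r = 0.953), Adap2 (0.949) and Hmox1, a haem-degrading enzyme (0.936), all highest in macrophages. For Cebpb they were Adam33 (0.931), Plxnb2 (0.927) and Cstb (0.923). Cebpg was nearest to Sh3glb1 (0.960), Kctd12b (0.951) and Ifit2 (0.951), all highest in endothelial cells, and Ddit3 to Ncbp2 (0.993), Vma21 (0.978) and 1810043G02Rik (0.970), all highest in Schwann cells. The 9 points share samples and sequencing depth, so r is a description only.

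Upstream of the family, 15 genes of its inducing signals were listed, among them receptors and transducers of interleukin-6, oncostatin M and interleukin-1. Lists were tested with edgeR across all genes, with a Benjamini-Hochberg adjusted p of at most 0.05. This test called 0% of 14079 genes in smooth muscle cells, 0.0504% of 13880 in fibroblasts, 0% of 12022 in macrophages and 0.213% of 10821 in endothelial cells. At an unadjusted p under 0.05 the counts were 1361, 1601, 922 and 1478 genes (9.67%, 11.5%, 7.67% and 13.7%), and DESeq2 called 132, 216, 43 and 73. Of the inducing genes tested, 0 of 13 passed in smooth muscle cells, 0 of 14 in fibroblasts, 0 of 14 in macrophages and 0 of 11 in endothelial cells. Their median log2 fold changes were 0.05, 0.16, 0.26 and 0.14, beside medians of all genes between -0.02 and 0.00. Osmr, the oncostatin M receptor, averaged 18.8 CPM in control and 29.8 CPM in high-fat diet smooth muscle cells (log2 fold change 0.65, edgeR adjusted p = 0.452) and 36.3 and 55.1 CPM in fibroblasts (0.57, edgeR adjusted p = 0.269). Socs3, an inhibitor that interleukin-6 signalling switches on, read 30.4, 29.1 and 27.0 CPM in control macrophages and 57.3, 51.5 and 63.1 CPM in high-fat diet ones (0.89, edgeR adjusted p = 0.390). DESeq2 called Socs3 there, and so did edgeR without control 1, together with Il1r1, an interleukin-1 receptor, and from well 2 of each sample alone. Without control 1, edgeR called 433 genes in macrophages, against 0 with all samples. At an unadjusted p under 0.05 the list had 2, 2, 1 and 1 genes, and DESeq2 called 0 outside macrophages. Stat3, the transducer itself, had 0.21, 0.38, 0.18 and 0.14 in smooth muscle cells, fibroblasts, macrophages and endothelial cells.

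Among 15 relatives and partners of the family, 1 passed in 1 cell type. Hlf, a bZIP factor of the clock-driven PAR group, fell in endothelial cells by 1.94 on the log2 scale (SE 0.29, edgeR adjusted p = 0.034), from 24.3, 27.4 and 27.2 CPM in controls to 11.1, 5.6 and 4.9 CPM under the high-fat diet. Without well 1 of control 3 it fell by 2.01 (edgeR adjusted p = 0.031). Leaving out control 2 or 3, or sample 2 or 3 of the other diet, ended the call (edgeR adjusted p = 0.104, 0.056, 0.247 and 0.114), as did either well of each sample alone and a wider marker margin. Over all genes, 0.0554% were called lower in endothelial cells. Tef and Dbp belong to the same group. Tef read 34.6, 73.8 and 71.2 CPM in control fibroblasts and 26.7, 17.6 and 20.3 CPM in high-fat diet ones (-1.54, edgeR adjusted p = 0.255), and lay lower without overlap in all 4 types. Dbp read 10.5, 278.8 and 231.0 CPM against 19.4, 12.6 and 12.5 CPM in fibroblasts (-3.65, SE 1.14, edgeR adjusted p = 0.358). Control 1 was thus at the level of the high-fat diet samples for Dbp, while controls 2 and 3 were far higher. Without control 1, edgeR called Dbp and Tef lower in macrophages and endothelial cells, together with Hlf in endothelial cells and Batf2 in macrophages, where Nfil3 was called higher. Over all genes that setting called 433 in macrophages and 401 in endothelial cells, against 0 and 23 with all samples. In smooth muscle cells Dbp read 12.6, 137.0 and 392.8 CPM in controls and 8.6 to 28.1 CPM under the high-fat diet. Nfil3, a repressor that acts against that group and was chosen after its values were seen, read 33.0, 7.4 and 7.5 CPM in control and 25.5, 34.1 and 24.8 CPM in high-fat diet fibroblasts, with control 1 again among the high-fat diet samples. For Cebpb, control 1 lay below control 3, which holds the odd well, in all 4 types. It lay above control 2 in fibroblasts and macrophages and below it in smooth muscle and endothelial cells. Of the relatives tested, 13 of 13 did not pass in smooth muscle cells, 14 of 14 in fibroblasts, 14 of 14 in macrophages and 12 of 13 in endothelial cells, with medians of -0.13, 0.13, -0.03 and -0.13. At an unadjusted p under 0.05 there were 3, 6, 3 and 3, and DESeq2 called Hlf in smooth muscle cells, Tef in fibroblasts, Dbp in macrophages and Hlf and Tef in endothelial cells, all lower.

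The ATF4 and CHOP stress list had 22 genes, and 1 of 18 tested in endothelial cells rose. This was Hspa5, the main chaperone of the endoplasmic reticulum, with 244.7, 173.7 and 132.4 CPM in controls and 434.7, 652.2 and 463.9 CPM under the high-fat diet (log2 fold change 1.48, SE 0.22, edgeR adjusted p = 0.040), where 0.157% of all genes were called higher. Without well 1 of control 3 the value was 1.49 (edgeR adjusted p = 0.035). The call was lost without control 2 or any 1 high-fat diet sample (edgeR adjusted p = 0.172, 0.113, 0.230 and 0.109), and from either well of each sample alone. It did not pass in smooth muscle cells (1.58, edgeR adjusted p = 0.364), fibroblasts (1.89, edgeR adjusted p = 0.104) or macrophages (1.00, edgeR adjusted p = 0.455), though its diets did not overlap in any of the 4. It passed in fibroblasts without a filter on low counts (edgeR adjusted p = 0.032) and from well 1 of each sample alone (edgeR adjusted p = 0.0498), and in macrophages without control 1 (edgeR adjusted p = 0.027). That last setting called 433 genes in macrophages, against 0 with all samples. Xbp1, a factor of the same folding response, had 0.73, 0.65, 0.12 and 0.44 in smooth muscle cells, fibroblasts, macrophages and endothelial cells, with edgeR adjusted p from 0.136 to 0.894. Atf4, the partner of C/EBPγ and driver of Ddit3, chosen after its values were seen, read 102.1, 83.1 and 92.8 CPM in control fibroblasts and 104.5, 96.6 and 123.3 CPM under the high-fat diet. Its log2 fold changes were -0.16, 0.18, -0.13 and 0.03 in smooth muscle cells, fibroblasts, macrophages and endothelial cells. Trib3, a target of ATF4 and CHOP, had 0.47 in fibroblasts and -0.52 in endothelial cells (edgeR adjusted p = 0.451 and 0.408). Medians of the list were 0.17, 0.18, 0.18 and 0.01, and 0 of 22, 0 of 22 and 0 of 18 members passed in the first 3 types. At an unadjusted p under 0.05 these had 6, 4 and 2 genes, and DESeq2 called Hspa5, Mthfd2 and Xbp1 in smooth muscle cells, Eif2s1, Hspa5 and Xbp1 in fibroblasts and Hspa5 in macrophages, all higher. In endothelial cells DESeq2 also called Hspa5 higher (DESeq2 adjusted p = 1.01e-08). Mthfd2 is a mitochondrial folate enzyme that ATF4 switches on, and Eif2s1 is the translation factor that stress kinases modify.

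**Figure D5:**
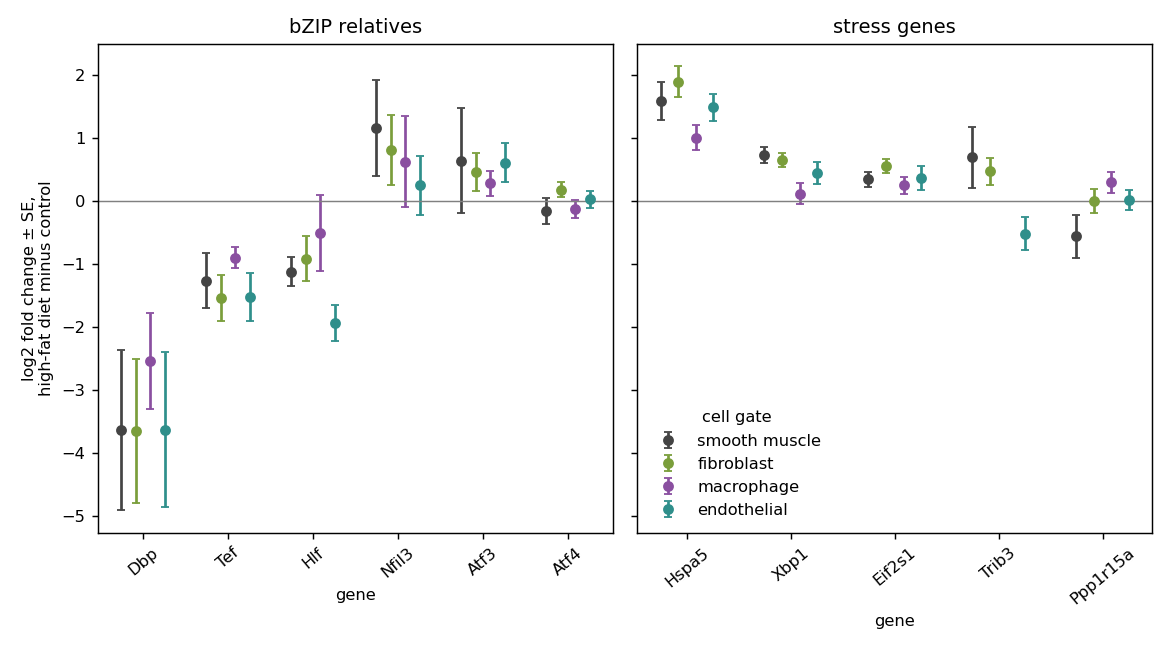
Log2 fold change between diets (high-fat diet minus control, edgeR, bars SE) of bZIP relatives (left) and stress genes (right) in 4 cell types. Dbp, Tef and Hlf lie below 0 and Hspa5 between 1.00 and 1.89, while Atf4 lies between -0.16 and 0.18. Trib3 was not tested in macrophages.

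Downstream, known acute phase and inflammatory targets of C/EBPβ did not pass: 0 of 14 in smooth muscle cells, 0 of 15 in fibroblasts, 0 of 11 in macrophages and 0 of 9 in endothelial cells, of 16 listed. Medians were 0.10, 0.11, 0.35 and 0.46, with 1, 0, 1 and 0 genes at an unadjusted p under 0.05, and DESeq2 called Ccl2 higher in smooth muscle cells. From well 2 of each sample alone, edgeR called the chemokine Cxcl2 higher in macrophages. Ccl2, a chemokine that attracts monocytes, read 8.1, 4.8 and 4.1 CPM in control endothelial cells and 9.8, 187.6 and 22.1 CPM under the high-fat diet (log2 fold change 3.73, SE 1.58, edgeR adjusted p = 0.413), so high-fat diet 2 made most of the difference. S100a8, a neutrophil protein and C/EBP target, read 45.2, 93.3 and 1032.3 CPM in high-fat diet macrophages 1, 2 and 3 and 17.3 to 185.7 CPM in the controls (2.04, edgeR adjusted p = 0.760). The summed neutrophil markers of high-fat diet macrophage sample 3 were 2073 CPM, with 8 of 8 detected, against 220.3 to 539.4 CPM in the other 5. S100a8 is itself 1 of these 8 markers, so the sum had to be high where S100a8 was, and nothing is read from it. The part of neutrophil RNA in the S100a8 value was not tested. Of 8 myeloid targets, 0 of 6 passed in smooth muscle cells, fibroblasts and macrophages and 0 of 5 in endothelial cells, with medians of 0.32, -0.31, -0.04 and 0.09 and 0, 0, 1 and 0 genes at an unadjusted p under 0.05. DESeq2 called 0 of them. Cd14, a co-receptor for bacterial lipid, read 166.3 to 171.2 CPM in control and 218.0 to 251.5 CPM in high-fat diet macrophages (0.37, edgeR adjusted p = 0.621).

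Fat cell genes, classic targets of C/EBPα, had negative medians of -0.45 in smooth muscle cells, -0.56 in fibroblasts, -0.45 in macrophages and -1.37 in endothelial cells, with 0 passing of 11, 11, 8 and 10 tested. Cfd, or adipsin, had -2.88 in fibroblasts (edgeR adjusted p = 0.176), and Lpl, a lipase that capillary cells also carry, 0.53 in endothelial cells (edgeR adjusted p = 0.194). Lpl passed there without a filter on low counts, a setting that called many more genes in endothelial cells than the main fit. At an unadjusted p under 0.05 there were 2, 4, 2 and 2, and DESeq2 called Cfd lower in fibroblasts. Some of these genes are among the fat cell markers summed beside Cebpa, and their source was not tested. Immediate early genes, which rise within minutes of tissue handling, were followed because Cebpb is itself quickly induced. None of 13 passed in any of the 4 types, and their medians were -0.39, -0.04, 0.04 and -0.04, with 1 gene at an unadjusted p under 0.05 in each and 0 called by DESeq2. Without control 1, edgeR called 433 genes in macrophages and 401 in endothelial cells. Dusp1 in macrophages and Hspa1b in endothelial cells were among them, both higher. The summed level of the immediate early genes was 1253.6 to 2712.0 CPM in control and 810.4 to 2512.0 CPM in high-fat diet smooth muscle cells. In macrophages it was 1971.3 to 3098.1 and 2594.0 to 3824.8 CPM. In smooth muscle cells Fos read 428 CPM in controls and 197 CPM under the high-fat diet on average (-1.18, edgeR adjusted p = 0.659). The sum of Hspa1a and Hspa1b, heat shock genes, was 39.7 to 124.7 CPM in control and 123.9 to 177.5 CPM in high-fat diet fibroblasts, 72.0 to 207.9 and 115.5 to 367.9 CPM in smooth muscle cells, 78.4 to 503.5 and 350.1 to 874.2 CPM in macrophages and 65.9 to 377.7 and 287.5 to 451.6 CPM in endothelial cells. In T cells it was 19.4 to 258.8 CPM in controls and 287.7 to 555.5 CPM under the high-fat diet, the 1 type of the 9 in which the diets did not overlap. The part of handling in the Cebpb values was not tested.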

How the data were processed

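Single-cell RNA of mouse aorta was captured in droplets as 3′ tags, per the labels' protocols. The deposited values are raw UMI counts per gene and cell, made by the authors with Cell Ranger 3.0 on mm10, per the submitters' processing notes. The annotation and cell calling are not given in the sources used here. The members and gene lists were chosen with earlier results of these data known.

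Cells were filtered and gated as in the report, with a doublet caller not used. Trac and Trbc2, of the T cell markers, had no row. Counts were summed per sample and type and compared with edgeR 4.0.16 (quasi-likelihood, robust, TMM factors, default filter, Benjamini-Hochberg at 0.05, R 4.3.3). Named genes are the members, up to 4 genes of each of 7 lists with the smallest adjusted p in a main type, and the 3 genes most like each member. On simulated counts with 100 genes changed 2-fold and 100 changed 4-fold, the test recovered 53% and 99% of these in smooth muscle cells, 70% and 98% in fibroblasts, 48% and 92% in macrophages and 79% and 99% in endothelial cells, with 12, 14, 18 and 12 false calls. The simulated counts were drawn for each gene and sample on their own, with no odd well and no shift of a whole sample. These rates therefore describe the simulation and may be too high for the real counts. Alternatives were DESeq2 1.42.0, median-of-ratios factors, no filter, a replicate block, each sample left out, a 4-marker gate, a 10% mitochondrial limit and other thinning. A gate margin of 2 markers, single wells and leaving out well 1 of control 3 were alternatives chosen after seeing the data.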

Additional observations from a re-analysis of the deposited data

How the results depend on the processing

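Cebpb kept a positive log2 fold change in 64 of 64 alternatives over the 4 cell types (0.52 to 3.35), and Cebpg in 62 of 64 (-0.09 to 0.54). For Cebpb, 9 of the 64 values moved from the main fit by at least the SD between samples of a diet. Cebpb was chosen from this comparison and all alternatives refit the same samples, so its constant sign is no sign of stability. The range was -0.70 to 0.21 for Cebpa and -0.38 to 0.36 for Ddit3, whose sign changed with the setting. Counts of genes called by edgeR (0 in smooth muscle cells, 7 in fibroblasts, 0 in macrophages and 23 in endothelial cells) moved more, and the cause was not tested. DESeq2 called 132, 216, 43 and 73 genes in that order, and edgeR without a filter on low counts 4, 14, 3 and 181. Among alternatives chosen after seeing the data, well 1 of each sample alone gave 2 in fibroblasts and 1 in endothelial cells, well 2 alone gave 3, 3, 5 and 10, and leaving out well 1 of control 3 gave 1 in smooth muscle cells, 1 in macrophages and 51 in endothelial cells. A 10% mitochondrial limit gave 1 in smooth muscle cells. Leaving out each sample in turn gave 0 to 1 in smooth muscle cells, 0 to 2 in fibroblasts, 0 to 433 in macrophages and 1 to 401 in endothelial cells, with 433 and 401 both reached without control 1. The replicate block gave 1 gene in smooth muscle cells, 0 in fibroblasts and 14 in endothelial cells. Deviations from the diet mean had correlations from -0.18 to 0.30 between same-numbered samples and from -0.45 to 0.53 between other pairs. With 3 samples per diet the deviations of a gene sum to 0, so these values cannot decide whether the numbers pair the samples. With the block, Hlf in endothelial cells had an edgeR adjusted p of 0.056. Of 64 thinned shares, 63 moved with the thinning depth, as shares of cells with a UMI rise with depth. Depth limits Schwann cells (281 cells) and the rare types most.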
